A study of Mus musculus with 44 samples.

Results

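The genes of the circadian clock described here were 10 of the 17126 genes, each a RefSeq identifier, in the deposited tables: the repressors Per1, Per2, Per3, Cry1 and Cry2, the activator Arntl, the nuclear receptors Nr1d1 and Nr1d2, and the output factors Dbp and Hlf. They were chosen by name, and all 10 had a row in the files. In mammalian cells the clock is a feedback loop. ARNTL (also called BMAL1) pairs with CLOCK or NPAS2, binds E-box elements and drives transcription of the Per and Cry genes, whose proteins then block that pair. NR1D1 and NR1D2 (REV-ERB-alpha and REV-ERB-beta) repress Arntl, and DBP and HLF are PAR bZIP factors that carry the rhythm to genes with D-box elements. Per1 is also known as an early response gene in the suprachiasmatic nucleus, the light-entrained pacemaker, where light acts on it through cAMP response elements (CREs).

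The mice were C57BL6J, and the study measured mRNA, ribosome-protected fragments (RPFs) and poly(A)-tail lengths. Visual cortex was taken from 8 mice of 6 to 7 weeks that had spent 1 week in the dark, 4 of which were killed in the dark (0 h) and 4 after 1 h of light; only tail sequencing (PAL-seq v2) was made from these. Cortical neurons from newborn pups, grown with cytosine arabinoside against dividing cells, were harvested after 14 days in vitro (DIV14) as unstimulated, BDNF-treated (30 min) and glutamate- and glycine-treated (glu/gly, 30 min) cultures and as cultures transduced on day 5 with a lentivirus whose synapsin promoter, a neuronal promoter, drove GFP, GFP with miR-1 or GFP with miR-155, or after 10 days (DIV10) as unstimulated cultures and cultures given KCl for 10 or 30 min. Adult hippocampus and adult cortex each came from 1 male mouse, and embryonic hippocampus from embryos of day 16; every other sample stood alone in its assay, so that only the light comparison had replicates. Mice for cultures and tissues had been kept on a cycle of light and dark. The time of day at which any sample was collected, which sets the phase of these genes, is not given in the sources used here.

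Reads or tags on genes numbered 448022 to 2111244 in RNA-seq of the 9 cultures, 1709163 to 7689624 in RNA-seq of the 3 tissues, 2812215 to 9477806 in RPFs of 7 cultures, 7498926 to 23212489 in RPFs of the tissues and 1233538 to 4812273 in the tags of the 8 mice. All 8 neuron markers examined were detected in RNA-seq of the 3 tissues and of both unstimulated cultures. The DIV14 culture had no reads for 4 of 6 oligodendrocyte markers (Mbp, Mog, Mag and Mobp) or for Gjb6, 1 of the 8 astrocyte markers, but its summed astrocyte markers reached 2217 CPM (counts scaled to the library total) against 3826 in adult cortex. The hippocampal RNA had been poly(A)-selected and that of adult cortex and 6 cultures depleted of ribosomal RNA, a step not stated for the other 3 cultures, so that tissue and preparation cannot be told apart between adult hippocampus and adult cortex.

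In the GRCm38 annotation (the assembly the authors call mm10), Per1 lies at chr11:69095108-69109965, Per2 at chr1:91415977-91459351, Per3 at chr4:150997018-151044707, Cry1 at chr10:85131700-85185054 and Cry2 at chr2:92403646-92434085. Dbp lies at chr7:45705100-45710203, Hlf at chr11:90336535-90390917, Nr1d1 at chr11:98767932-98775377, Nr1d2 at chr14:18204056-18239106 and Arntl at chr7:113178471-113314126. RNA-seq reads and RPFs were counted over the coding exons of 1 transcript per gene. The spans of other annotated genes overlap 6 of the 10, protein-coding ones at Per3 (Uts2), Dbp (Sphk2) and Nr1d1 (Thra), and long noncoding ones at Per2, Cry2 and Arntl. Whether reads of these genes entered the counts was not tested.

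The stretches below show where the elements of the loop stand in the 250 bases upstream of the annotated start sites, because Per1 was the clock gene that passed the test after light. They come from the RefSeq promoter table of GRCm38, which held 11 windows for 9 of the 10 genes, Per1 and Arntl with 2 starts each; Per2 had none and was not searched. They are written 5′ to 3′ on the strand of the gene, with the element in capitals.
Per1, first start, CRE core site, chr11:69098699-69098726: ttatTGACGgtgtgagacatcctgatcg
Per1, first start, E-box, chr11:69098772-69098799: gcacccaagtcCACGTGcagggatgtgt
Per1, second start, CRE core site, chr11:69100009-69100036: agctcagcggcTGACGtcggtttccctg
Cry1, E-box, chr10:85185098-85185125: gtgccggtggtCACGTGgggtgcatgcc
Cry1, variant E-box, chr10:85185117-85185144: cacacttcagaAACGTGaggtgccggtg
Nr1d1, variant E-box, chr11:98775389-98775416: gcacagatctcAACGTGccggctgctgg
Nr1d2, RORE core, chr14:18239167-18239194: attggaagaagAGGTCAggaccgctcgt
Hlf, full CRE, chr11:90390918-90390945: cggcgcgcggtgcgggcccTGACGTCAc
Per3, D-box, chr4:151044854-151044881: cgacccgcgcgTTATGTAAggtactcgg
Per3, D-box, chr4:151044807-151044834: cccgcccgcggTTATGTAAcccccgccg

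Among all 32851 windows of the same length, searched on both strands, the E-box CACGTG stood in 6.02%, and among the clock genes in Per1 and Cry1. The variant E-box, CACGTT or AACGTG, stood in 3.85% of windows and in those of Cry1, Cry2 and Nr1d1. The CRE core site, TGACG or CGTCA, was the most frequent, in 17.8% of windows and in Per1, Cry1, Cry2 and Hlf, and the full CRE TGACGTCA, which contains it, in 1.55% and, of the 9 genes searched, in Hlf. The RORE core, AGGTCA or TGACCT, to which REV-ERB proteins bind, stood in 14.0% of windows and in Per1 and Nr1d2. The D-box, TTATGTAA, TTACATAA or TTACGTAA, was in 0.931% of windows and in Per3, which held 2. Of the CRE core sites of Per1, 1 lies upstream of each of its starts. These are matches of letters in short windows and not mapped binding sites.

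The visual cortex compared 1 h of light with darkness and asks which of these genes respond to light outside the pacemaker. Per1 rose 3.95-fold, Per2 was 1.75-fold higher without passing the test, and the other 8 differed by at most 1.28-fold. Of 9554 genes tested with edgeR's quasi-likelihood test on tag counts, 1.21% rose and 0.126% fell at an adjusted p below 0.05, and of the 10 clock genes 1 rose and none fell, also with DESeq2. At an unadjusted p below 0.05 there were 3 higher clock genes (Per1, Per2 and Cry2) and none lower, where 5.28% of all genes tested were higher and 4.18% lower. The median log2 change was 0.08 over the clock genes and -0.0047 over all genes tested.

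Tag counts are given as CPM, scaled to each library's total on genes. For Per1, the CPM of the dark mice were 42.4, 44.5, 47.6 and 62.8, and those of the mice in light 156, 200.5, 225 and 168. The cohorts were far apart, and the lowest mouse in light stood above the highest in the dark. The cohorts failed to overlap in this direction for 2.63% of genes. The log2 change was 1.98 with an SE of 0.14 (adjusted p = 1.8e-09, edgeR), and Per1 ranked 7 of the 9554 genes by p. The dark mouse with 62.8 CPM also had the highest sum of 8 activity-induced control genes such as Fos and Arc among the dark mice, 1296 CPM against 308.5 to 667.5 in the other 3; whether the values are linked was not tested.

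Per2, the partner of PER1 in the repressor complex, stood at 15.05, 18.3, 24.98 and 18.5 CPM in the dark and at 19.5, 35.1, 39.3 and 35.1 CPM in light. Of the mice in light 3 lay above all dark mice and 1 lay among them. The log2 change of 0.81 (SE 0.23) had a p of 0.00159 before adjustment and an adjusted p of 0.0938 with edgeR. It passed the threshold under some settings. With genes of low counts kept in the fit, the adjusted p was 0.0293, and without the first mouse in light, which had 19.5 CPM, the log2 change was 0.97 and the adjusted p 0.0158.

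Cry2, a cryptochrome that inhibits the ARNTL and CLOCK pair, stood at 113, 147, 164 and 163 CPM in the dark and at 157, 177, 183 and 216 CPM in light. The cohorts overlapped at 1 mouse in light. The change was 1.28-fold (95% interval 1.08 to 1.51; adjusted p = 0.245). Cry1, the other cryptochrome, was more variable, from 18.0 to 45.1 CPM in the dark and from 17.8 to 57.5 CPM in light, and its 95% interval ran from 0.802-fold to 1.64-fold. Per3, the period gene least tied to core timekeeping, had a mean of 23.3 CPM in the dark and 25.3 CPM in light, with an interval of 0.816-fold to 1.43-fold.

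Among the output factors, the REV-ERB genes and Arntl, Hlf and Nr1d2 had the narrowest intervals. Hlf stood at 815, 862, 773 and 919 CPM in the dark and at 746, 865, 928 and 858 CPM in light, with means of 842 and 849 CPM. Its change was 1.03-fold, with a 95% interval of 0.914-fold to 1.16-fold. Nr1d2 had means of 225 and 229.5 CPM, a change of 1.04-fold and an interval of 0.906-fold to 1.19-fold. Both intervals were narrow around no change. Dbp had means of 146 CPM in the dark and 136 CPM in light, with an interval of 0.800-fold to 1.11-fold. Nr1d1 went from a mean of 169 to 151.5 CPM (0.765-fold to 1.12-fold) and Arntl from 54.0 to 47.9 CPM (0.714-fold to 1.16-fold). None of these 5 genes had cohorts that stood apart, and their adjusted p-values with edgeR ran from 0.888 to 0.939.

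**Figure D1:**
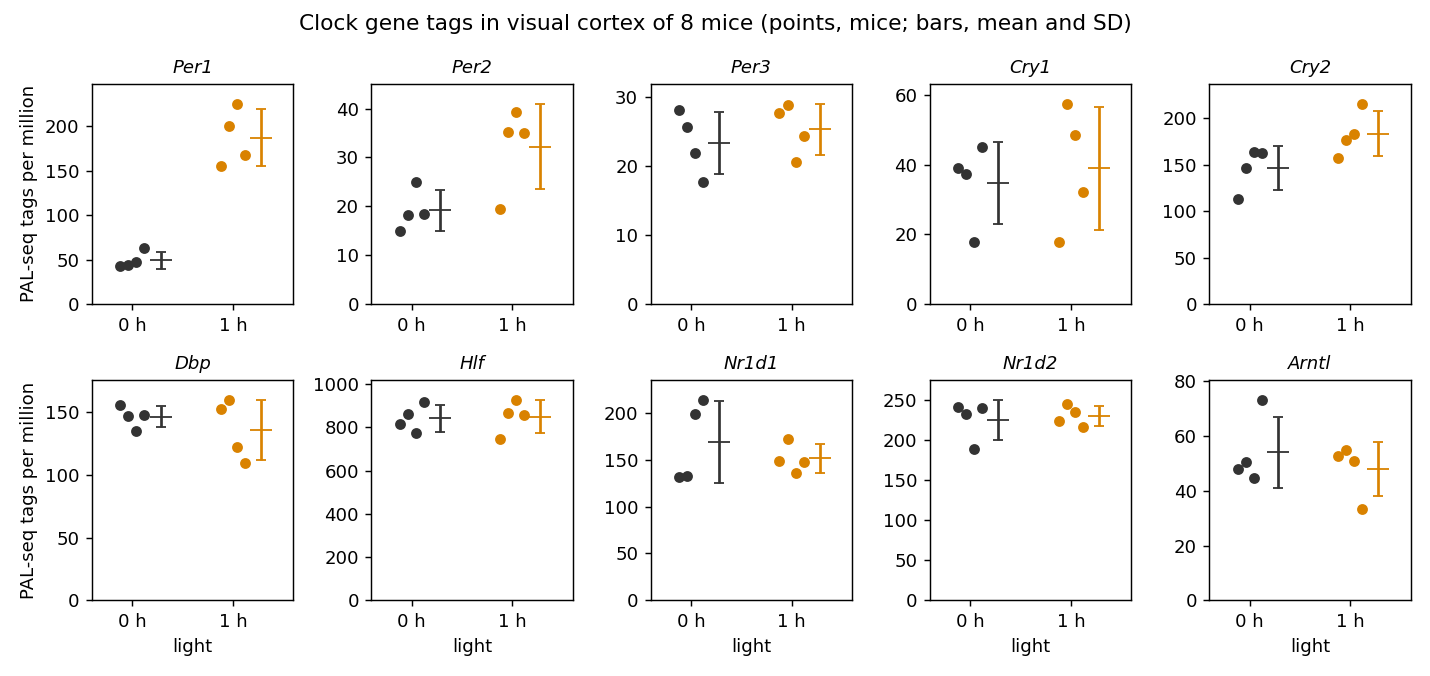
PAL-seq tags in CPM of the 10 clock genes (y axis, each panel from 0) in 4 dark mice (0 h, dark points) and 4 mice after 1 h of light (1 h, orange points), with mean and SD. For Per1 all mice in light (156 to 225) lie above all dark mice (42.4 to 62.8), and for the other 9 genes the cohorts overlap.

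Other genes of the loop are the partners of ARNTL, the ROR receptors that oppose REV-ERB, and further repressors. Of 12 listed, 10 were tested and 3 rose: Nfil3, Bhlhe40 and Ciart. Of all genes tested 1.21% rose, and the list was chosen with earlier results of these data known. Nfil3, a bZIP repressor that competes with DBP and HLF at D-boxes, went from a mean of 9.93 to 32.6 CPM (log2 change 1.73, adjusted p = 5.0e-05). Bhlhe40 (DEC1), a repressor at E-boxes, went from 194 to 557 CPM (log2 change 1.55, adjusted p = 9.1e-08). Ciart (CHRONO), also a repressor of the ARNTL and CLOCK pair, went from 28.9 to 75.1 CPM (log2 change 1.37, adjusted p = 0.000424). In each of the 3 every mouse in light exceeded every dark mouse. The other 7, Bhlhe41, Clock, Npas2, Rora, Rorb, Tef and Timeless, did not pass the test, with folds between 0.680 (Timeless) and 1.24 (Rorb).

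Of 11 modifiers of clock proteins (casein kinases, F-box proteins and others) 9 were tested and none passed. Of 10 genes of CREB signalling and light input to the clock 7 were tested and 4 rose: Gem, Sik1, Dusp1 and Crem. Of all genes tested 1.21% rose, but this list was chosen with earlier results of these data known, so its count is no independent result. Sik1, a kinase that restrains CREB signalling and with it the response of Per1 to light in the pacemaker, went from a mean of 4.08 to 48.7 CPM (log2 change 3.82, adjusted p = 2.7e-08, edgeR). Crem, a CREB relative, rose 1.61-fold (adjusted p = 0.0391). That call was lost without dark mouse 1, 3 or 4 or without mouse 2 or 3 in light, with adjusted p-values of 0.113, 0.0937, 0.0910, 0.0673 and 0.303 in that order. Among the control genes of neuronal activity all 8 rose, Fos by 3.91, Arc by 3.29, Egr1 by 3.15 and Npas4 by 2.84 on the log2 scale. Cell-type markers that were tested did not pass apart from Hes5, a progenitor gene, which fell by 1.27 on the log2 scale (adjusted p = 0.00574, edgeR). Only 2 of 5 endothelial and 2 of 5 progenitor markers were tested. The summed astrocyte markers were 4027 to 5015 CPM in the dark and 3663 to 3978 CPM in light, without overlap, and their part in the values of the clock genes was not tested. In bulk tissue fewer cells of a type and less RNA per cell cannot be told apart.

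Tail lengths of the clock genes did not pass the test after light. At least 50 tags in each of the 8 mice were needed, which 7 of the 10 genes had; Per2, Per3 and Cry1 had as few as 22 tags. With limma, 10 of 4321 genes (0.231%) changed, all to longer tails, and none of the 7 was among them; at an unadjusted p below 0.05 there were 170 genes, Cry2 among them. Per1 had a mean tail of 111 nt in the dark (SD 13.6) and 112 nt in light (SD 10.8). The difference was 0.64 nt (95% interval -12.5 to 13.7), beside the 3.95-fold change of its tags. Limma gave every gene the same SE of 6.68 nt, so that the intervals of tail differences do not measure the spread of a single gene.

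The largest difference was that of Cry2. Its mean tails were 108, 98.5, 84.2 and 87.1 nt in the dark and 103, 114.5, 120.4 and 101 nt in light, and the cohorts overlapped. The difference was 15.2 nt (95% interval 2.10 to 28.3), with an adjusted p of 0.999 (limma). Over all genes tested the median difference was 3.75 nt, and the mean tail of a mouse ran from 77.4 to 92.7 nt in the dark and from 81.8 to 98.0 nt in light. Differences of the other 5 genes lay between 0.61 nt (Nr1d1) and 10.0 nt (Arntl). Per1 and Cry2 had the longest tails of the 7 genes tested, and Arntl (76.3 nt in the dark) and Nr1d2 (79.9 nt) the shortest.

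**Figure D2:**
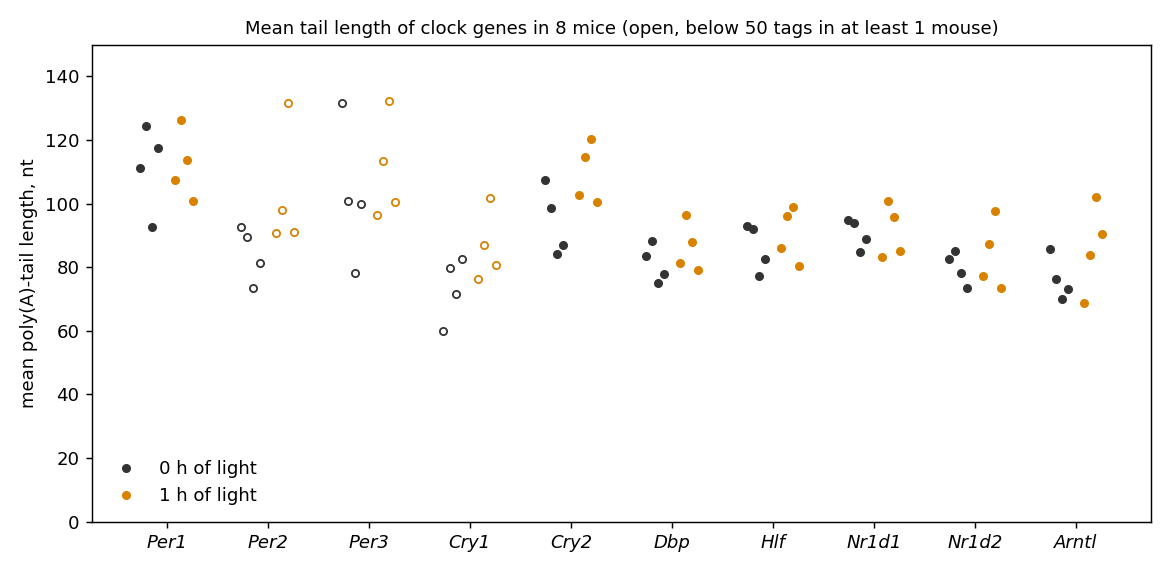
Mean poly(A)-tail length in nt (y axis, from 0) of the 10 clock genes in 4 dark mice and 4 mice after 1 h of light; open points mark genes below 50 tags in at least 1 mouse, which were not tested. The cohorts of each tested gene overlap, and the points of Per1 lie between 92.7 and 126 nt.

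In stimulated cultures the question was whether depolarization or receptor activation moves the same genes within minutes. After BDNF and after glu/gly the RPFs of all 10 clock genes stayed within 2-fold of those in the unstimulated DIV14 culture, the control that both stimuli share. With a single library per arm, values are given with a 95% Clopper-Pearson interval of the ratio of counts, which covers counting error only, and with the share of all genes past 2-fold as background. After BDNF, 0 of 10 clock genes passed 2-fold in RPFs, where 0.845% of genes passed it upward and 3.09% downward. After glu/gly, 0 of 10 passed it, at 0.812% and 2.92%. In RNA-seq only 6 of the 10 reached 20 reads over both libraries, and none of them passed 2-fold after either (1.61% of genes higher and 2.71% lower with BDNF, 3.13% and 2.98% with glu/gly).

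Per1 had 433 RPFs in the unstimulated DIV14 culture (99.8 CPM), 391 after BDNF (105.7 CPM) and 295 after glu/gly (104.9 CPM). The 3 cultures gave nearly one value, with ratios of 1.06 (0.922 to 1.22) and 1.05 (0.903 to 1.22). The RNA-seq reads of Per1 were 9, 11 and 19 in the same order, a ratio of 1.79 (0.770 to 4.48) for glu/gly, and its tags were 56, 57 and 38. The activity-induced control genes summed to 139.6, 2017 and 1012 CPM of RNA-seq in these cultures, highest after BDNF. Dusp1, a phosphatase gene of the CREB and light input list, had 6.72-fold more RPFs after BDNF (596 against 104), and Ciart 2.23-fold more (38 against 20), while Gem, a GTPase gene of the same list as Dusp1, had fewer (11 against 29, 0.44-fold, 0.20 to 0.92).

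Of the other members, Nr1d2 had 110 RPFs without stimulation and 48 after glu/gly, 0.67-fold (0.47 to 0.95), and Nr1d1 had 491 and 271, 0.85-fold (0.73 to 0.99). These were the 2 intervals below 1 among the 20 of both stimuli, and none lay above 1. Over all genes 15.5% of the intervals lay below 1 after BDNF and 16.2% after glu/gly, and 8.43% and 10.8% lay above it. The ratios of the 9 other genes after BDNF ran from 0.73 (Per3, 13 against 21 RPFs) to 1.17 (Arntl), and those of the 7 others after glu/gly from 0.84 (Dbp) to 1.27 (Arntl). In tags 0 of 9 passed 2-fold after BDNF (1.08% of genes higher, 2.15% lower). After glu/gly 1 of 9 did, Per2 with 6 tags against 17 (0.46-fold, 0.15 to 1.22), where 1.19% of genes were past 2-fold higher and 2% lower.

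In DIV10 cultures given KCl, which share 1 unstimulated culture, more clock genes stood past 2-fold. Nr1d2, Per3 and Hlf had fewer RPFs after 10 min, 3 of 10 clock genes past 2-fold downward against 6.28% of genes, and none passed 2-fold upward (1.37% of genes). Nr1d2 had 166 RPFs in the unstimulated culture (17.5 CPM), 25 after 10 min (4.53 CPM) and 21 after 30 min (6.89 CPM). It was the lowest of the 10 relative to the unstimulated culture at 10 min, with ratios of 0.26 (0.16 to 0.40) and 0.39 (0.24 to 0.62). Its RNA-seq reads were 33, 11 and 28 and its tags 21, 18 and 17, none of which passed 2-fold. In RNA-seq 0 of 6 clock genes passed it after 10 min (1.21% of genes higher, 2.97% lower) and 0 of 6 after 30 min (2.5% higher, 7.94% lower). In tags 1 of 8 passed it after 10 min (1.91% higher, 2.15% lower), Nr1d1 with 25 tags against 11 (2.39-fold, 1.14 to 5.39), and 0 of 8 after 30 min (2.64% higher, 2.4% lower).

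Per3 had 41, 8 and 6 RPFs, ratios of 0.34 (0.14 to 0.72) and 0.45 (0.16 to 1.08). Hlf had 60, 16 and 15 RPFs, ratios of 0.46 (0.25 to 0.81) and 0.78 (0.41 to 1.39). Both were rare, and only the intervals at 10 min excluded 1. Over all genes 27.3% of the RPF intervals lay below 1 after 10 min and 22.2% after 30 min. After 30 min, 2 of 10 clock genes (Nr1d2 and Per3) were past 2-fold downward, against 6.2% of genes, and none upward (1.61%). Cry1 was lower at both times, 0.63-fold (0.49 to 0.81) and 0.70-fold (0.51 to 0.94), within 2-fold.

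Per1 was higher in RPFs after KCl. It had 688 RPFs in the unstimulated DIV10 culture (72.6 CPM), 621 after 10 min of KCl (113 CPM) and 326 after 30 min (107 CPM). Both stimulated cultures lay above the unstimulated one, by 1.55-fold (1.39 to 1.73) and 1.47-fold (1.29 to 1.68), short of 2-fold. Over all genes 18.9% of the RPF intervals lay above 1 after 10 min and 18.3% after 30 min. Its RNA-seq reads, 25, 19 and 20, gave ratios of 1.71 and 1.19, with intervals that included 1. Its tags, 27, 20 and 19, gave ratios of 0.78 (0.41 to 1.44) and 0.55 (0.29 to 1.02), whose intervals also included 1. The RNA-seq ratio at 30 min depended on the scaling. It was 0.84 with the authors' RPM, where the median gene stood at 0.68. The 2 kinds of RNA measurement thus settled no direction for Per1 at this depth. Cry2 stood at 631, 409 and 263 RPFs, with ratios of 1.11 (0.98 to 1.26) and 1.30 (1.12 to 1.499), and Dbp at 135, 105 and 35 RPFs, with ratios of 1.34 (1.03 to 1.74) and 0.81 (0.54 to 1.18). Arntl was 0.77-fold (0.63 to 0.93) at 10 min and 1.01-fold at 30 min, Nr1d1 1.11-fold and 0.98-fold, and Per2 0.96-fold and 1.02-fold. The summed control genes of activity were 80.6 CPM of RNA-seq without KCl, 179 after 10 min and 671 after 30 min. Compared directly, the KCl cultures of 30 min and 10 min had no clock gene past 2-fold, among 6 in RNA-seq (2.33% of genes higher, 4.34% lower), 9 in RPFs (1.5% and 1.54%) and 8 in tags (1.97% and 1.52%). With the authors' RPM in place of CPM, the median of all genes in that RNA-seq comparison moved by -0.67 on the log2 scale, to a ratio of 0.62. Per1 (0.44-fold), Cry2 (0.49-fold) and Dbp (0.32-fold) then stood past 2-fold lower at 30 min, as did 26.8% of all genes.

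**Figure D3:**
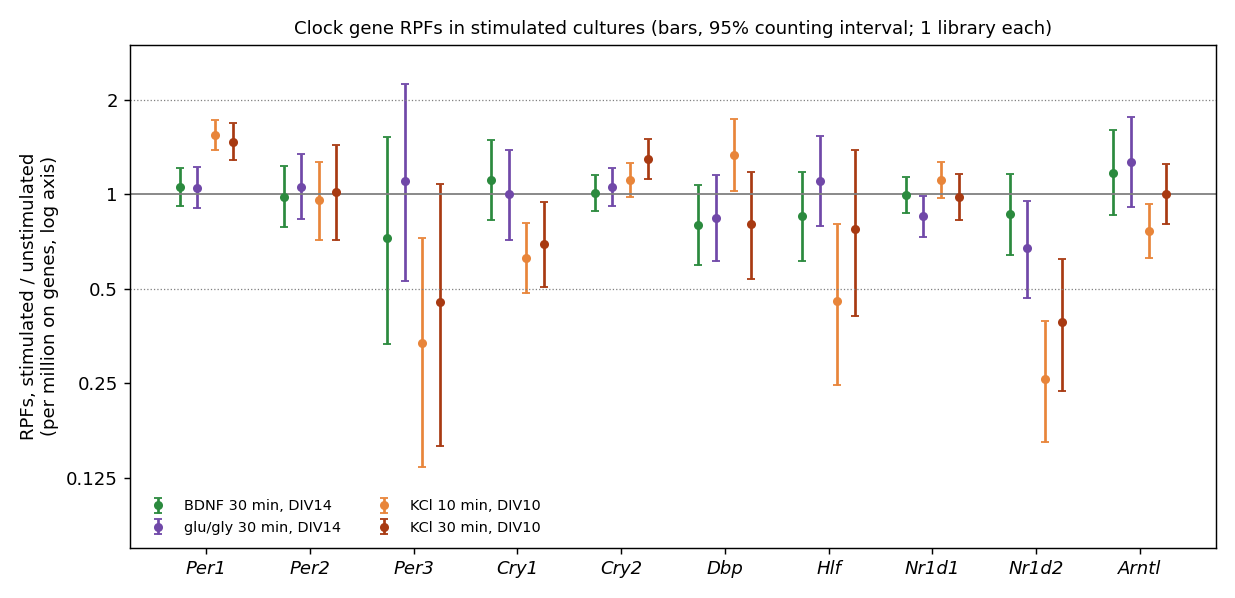
Ratio of RPFs in CPM, stimulated over unstimulated culture (y axis, log scale), for the 10 clock genes after BDNF, glu/gly or KCl, with 95% counting intervals and 1 library each; dotted lines mark 2-fold. Nr1d2 falls below the lower line after KCl for 10 min (0.26) and 30 min (0.39), and Per1 lies at 1.55 and 1.47.

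TE, the log2 ratio of RPFs to RNA-seq reads, each scaled to its library, was taken only where RNA-seq reached the authors' cutoff of 10 RPM, as it did for few clock genes in culture. Cry2 had a TE of 2.67 in the unstimulated DIV14 culture, 2.24 after BDNF and 2.30 after glu/gly, and its changes of -0.43 (-1.17 to 0.30) and -0.37 (-1.10 to 0.35) had intervals that included 0. The medians of all genes changed by -0.11 and -0.30. Above the cutoff in only some cultures, Dbp had a TE of 0.30 after BDNF, and Nr1d2 had 0.43 after BDNF, -0.47 after glu/gly and 0.29 in the GFP culture. Arntl stood at 0.78 in the unstimulated DIV10 culture and at -0.42 after KCl for 10 min. It had a change of -1.19 (-1.79 to -0.60) after KCl for 10 min, below the -0.41 of the median gene and at the 9.29 percentile. That is past 2-fold downward, as were 14.9% of genes. After KCl for 30 min Arntl was just below the cutoff, at 9.98 RPM. Without a cutoff its change there was 0.25 (-0.33 to 0.84), beside 0.50 for the median gene.

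Unstimulated cultures were also compared with each other. Between the GFP and the unstimulated DIV14 culture, 0 of 10 passed 2-fold in RPFs (1.12% of genes higher, 4.77% lower), and the largest ratio was that of Per2, 1.55 (1.26 to 1.92), 189 RPFs against 179 in the deeper library. In RNA-seq 0 of 5 passed 2-fold (1.95% higher, 3.64% lower), and in tags 1 of 8 did (2.85% higher, 5.33% lower), Arntl with 5 tags against 30 (0.45-fold, 0.14 to 1.16). Between DIV10 and DIV14, 2 of 10 were past 2-fold lower at DIV10 (4.42% of genes) and none higher (9.8%). Hlf stood at 60 against 92 RPFs (0.30-fold, 0.21 to 0.42) and Per2 at 140 against 179 (0.36-fold, 0.28 to 0.45), and 7 of the 10 intervals lay below 1, as did 21.7% of those of all genes. Arntl had 343 against 85 RPFs (1.85-fold, 1.45 to 2.37). The authors' RPM moved the median of all genes by -0.21 on the log2 scale. With it 5 of 10 were past 2-fold lower, against 7.34% of genes, Cry2, Dbp and Nr1d1 being added at 0.495-fold, 0.449-fold and 0.472-fold. The median ratio of the clock genes was 0.632, beside 1.07 over all genes tested. In RNA-seq 0 of 7 passed 2-fold (8.47% higher, 3.02% lower), and in tags 2 of 9 did, Hlf and Per2, both lower (6.82% higher, 5.2% lower). The cultures were prepared in batches, which the sources used here do not tie to conditions. Batch and age in vitro cannot be told apart here, nor can batch and stimulus in the comparisons of stimulated cultures.

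Cultures with miR-1 or miR-155 were compared with the GFP culture. miR-155 is printed here because Arntl carries sites that match part of its seed. Its mature sequence at chr16:84714143-84714165 is shown as RNA, with the seed (bases 2 to 8) in capitals. A match to the whole seed would be AGCATTA. The 2 sites in the 3′ UTR of Arntl, with matching bases in capitals, hold GCATTA without the A before it. The A after it stands opposite the first base of the miRNA.
miR-155: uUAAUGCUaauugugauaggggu
Arntl, chr7:113313647-113313670: cagtatcaaagtGCATTAAtggtg
Arntl, chr7:113313842-113313865: tgtggatagcttGCATTAAttgta

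Nr1d2 held 2 shorter matches (GCATTA without an A on either side), and the 3′ UTRs of the other 8 genes held none. RNA-seq of Arntl gave 17 reads in the GFP culture and 82 with miR-155, 37.9 and 38.8 CPM, a ratio of 1.02 (0.602 to 1.84). Dbp, with no site in its 3′ UTR of 323 nt, had 15 reads with GFP and 29 with miR-155, 33.5 and 13.7 CPM, a ratio of 0.41 (0.21 to 0.82). Per2 had 4 and 48 reads, a ratio of 2.55 (0.932 to 9.72). These were the 2 of 8 clock genes past 2-fold with miR-155, where 4.12% of genes were higher and 2.97% lower. In tags 2 of 7 passed 2-fold with miR-155, Per1 higher (2.75% of genes) and Cry2 lower (3.38%), the latter with 21 tags against 38 (0.45-fold, 0.25 to 0.78). With miR-1, 0 of 5 passed 2-fold in RNA-seq (2.92% higher, 3.6% lower), and 1 of 6, Per1, did in tags (2.82% higher, 4.38% lower).

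The tissues were compared next. In adult against embryonic hippocampus 8 of 10 were past 2-fold higher in RNA-seq, against 22.3% of genes, and none lower, against 26.6%. The median ratio of the clock genes was 3.36, beside 0.854 over all genes tested. In RPFs, 7 were higher (30.3% of genes) and 1, Cry1, lower (33.5%). Tags reached 20 for only 3 clock genes, Hlf, Nr1d2 and Arntl, all past 2-fold higher in the adult (28.5% of genes higher, 17.2% lower). Developmental stage, animal and cell composition cannot be told apart with 1 library each.

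The output factors and Nr1d1 were furthest apart. Nr1d1 had 747 RNA-seq reads in the adult and 24 in the embryo, 32.9-fold (21.9 to 51.6), and 4503 against 40 RPFs, 121-fold (88.5 to 169). Hlf had 547 and 32 reads, 18.0-fold (12.6 to 26.7), and 2937 against 3 RPFs, 1049-fold (359 to 5091). Dbp had 468 and 60 reads, 8.24-fold (6.29 to 10.97), and 1119 against 46 RPFs, 26.1-fold (19.4 to 35.8). Per3 had 227 and 21 reads, 11.4-fold (7.29 to 18.8), and 205 RPFs against 1, 220-fold (39.0 to 8720). For these 4 genes the RPFs differed more than the RNA, and in the embryo each was below the RNA-seq cutoff for TE.

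The repressors Per1, Per2 and Cry2 and the receptor Nr1d2 differed by about 3-fold in RNA. Per1 was 2.98-fold higher in the adult (1112 against 394 reads) and 2.16-fold higher in RPFs. Per2 was 3.03-fold higher in RNA and 1.83-fold in RPFs, Cry2 3.32-fold and 2.96-fold, and Nr1d2 3.40-fold and 2.91-fold. Arntl was 1.68-fold higher in RNA and 1.99-fold in RPFs. Cry1 stood alone with less in the adult: 175 against 243 reads, 0.76-fold (0.62 to 0.93), and 233 against 610 RPFs, 0.41-fold (0.35 to 0.48).

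**Figure D4:**
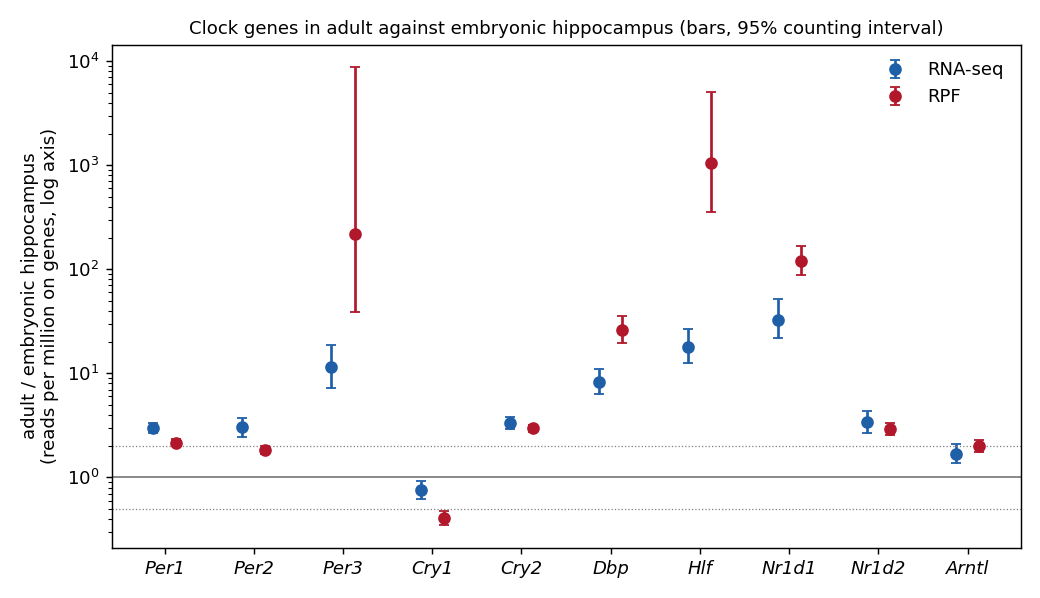
Ratio of CPM, adult over embryonic hippocampus (y axis, log scale), in RNA-seq and RPFs for the 10 clock genes, with 95% counting intervals and 1 library per tissue and assay; dotted lines mark 2-fold. Nr1d1, Hlf, Dbp and Per3 lie between 8.24 and 32.9 in RNA-seq and higher in RPFs, and Cry1 lies below 1 in both.

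Of the 12 other genes of the loop, 9 were past 2-fold higher in adult RNA-seq (22.3% of genes) and 1, Timeless, lower (26.6%). Npas2, which can take the place of CLOCK in forebrain, had 225 reads against 6 (39.6-fold, 17.9 to 109), Bhlhe41 had 109 against 5 (23.0-fold, 9.57 to 72.3) and Bhlhe40 had 884 against 81 (11.5-fold, 9.17 to 14.7). Timeless, which acts in DNA replication, had 41 against 444 (0.098-fold, 0.069 to 0.134). Of the 11 modifiers 1 was higher and 3 lower, beside the same 22.3% and 26.6% of all genes. Cell markers moved with these values. Summed progenitor markers were 46.6 CPM in the adult and 2034 in the embryo, oligodendrocyte markers 1684 and 35.2 (Mog at 0 in the embryo), astrocyte markers 3370 and 756 (Gjb6 at 0 in the embryo) and neuron markers 5804 and 3547. Their part in the differences of the clock genes was not tested.

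Adult cortex was compared with adult hippocampus. In RNA-seq 1 of 10 clock genes was past 2-fold higher in cortex (10.2% of genes) and none lower (11.4%). This was Nr1d2, with 198 reads against 277 in the deeper hippocampal library, 116 and 38.1 CPM, 3.04-fold (2.52 to 3.67). The other 9 ran from 0.68 (Hlf) to 1.29 (Cry1). These RNA-seq calls depended on the scaling. With the authors' RPM, which moved the median of all genes by -0.61 on the log2 scale, Hlf (0.444-fold) and Nr1d1 (0.455-fold) were past 2-fold lower in cortex, where 30.2% of genes were, and none was past 2-fold higher (3.27% of genes), Nr1d2 standing at 1.99-fold. Tags of adult cortex came from TAIL-seq and those of the hippocampi from PAL-seq v2, so that method and tissue cannot be told apart in their tags. In tags Nr1d2 was lower in cortex, 77 against 43 tags, 0.66-fold (0.45 to 0.99). In tags 3 of 8 clock genes were past 2-fold higher (16.3% of genes) and 1 lower (12.8%): Per1, Dbp and Nr1d1, each with at most 10 hippocampal tags, and Arntl. In RPFs 2 of 10 were higher (19.9% of genes) and none lower (12.3%): Dbp with 862 against 1119 RPFs, 2.22-fold (2.03 to 2.43), and Cry1 with 166 against 233, 2.06-fold (1.68 to 2.52). With the authors' RPM these were 2.10-fold and 1.95-fold, and 1 of 10 stayed past 2-fold. Nr1d2 was 1.66-fold, Per1 1.54-fold, Nr1d1 1.51-fold, Hlf 1.36-fold and Cry2 1.23-fold higher in RPFs with intervals above 1. Arntl (1.12), Per2 (0.99) and Per3 (0.80) had intervals that included 1. Among all genes in these RPF libraries, 43.1% of the intervals lay above 1 and 36.2% below.

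Levels between genes were compared as CPM per kb of counted sequence. In adult cortex RNA-seq the order was Dbp (88.3), Nr1d2 (68.9), Cry2 (67.3), Hlf (60.7), Nr1d1 (39.7), Per1 (31.4), Arntl (20.1), Cry1 (17.5), Per2 (14.9) and Per3 (11.4). The counting intervals of each pair of neighbours overlapped except Hlf and Nr1d1, and Per1 and Arntl. In adult hippocampus Hlf led with 89.7 (82.3 to 97.5), ahead of Dbp and Cry2, which overlapped, and Nr1d1, and Per3, Per2 and Cry1, at 13.3 to 13.6, could not be ordered. In embryonic hippocampus Cry2 (20.6) and Cry1 (17.8) led and Per3 (1.16) was last.

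The order by RPFs was another one. In adult cortex Hlf (221 CPM per kb, 209 to 233) and Nr1d1 (175, 168 to 182) came first, Dbp (124) and Cry2 (98.0) followed, and Per3 (3.23, 2.45 to 4.19) was last. In adult hippocampus Hlf (162) and Nr1d1 (116) came first as well. In the unstimulated DIV14 culture Cry2 (67.2, 61.5 to 73.3) and Nr1d1 (63.0, 57.5 to 68.8) led with overlapping intervals, and Hlf was at 25.3.

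Hlf and Nr1d1 also had a high TE in adult tissue. RPFs are the numerator of TE, so that their rank in RPFs and their TE are not separate observations. In adult cortex Nr1d1 had a TE of 3.73 (3.47 to 4.00), higher than 99.6% of 5019 genes, and Hlf 3.45 (3.14 to 3.78), at the 99.004 percentile. In adult hippocampus the values were 2.08 for Nr1d1 (93.2 percentile of 6342 genes) and 1.91 for Hlf (89.6 percentile). Of the 7 clock genes above the cutoff in adult cortex 6 lay above the library median of 1.31, and Nr1d2 lay below it at 0.81 (0.57 to 1.06). In adult hippocampus 6 of 9 lay above the median of 0.88, and Per1 (0.06) and Per3 (-0.66) were at the 23.2 and 10.7 percentiles. In embryonic hippocampus 3 genes passed the cutoff, Cry2 with 1.17, Cry1 with 0.52 and Per1 with 0.24, at a median of 0.67.

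The TE of 4 clock genes was past 2-fold higher in adult cortex than in adult hippocampus: Nr1d1 by 1.65, Hlf by 1.54, Per1 by 1.501 and Dbp by 1.33 on the log2 scale. The median gene was higher by 0.51, and 22.1% of 4813 genes were past 2-fold higher. Cry2 was higher by 0.85 and Per2 by 0.35, and Nr1d2 differed by -0.35, within 2-fold and at the 7.98 percentile. Past 2-fold lower were 1.18% of genes. These TE values carry the difference in RNA preparation between the tissues.

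**Figure D5:**
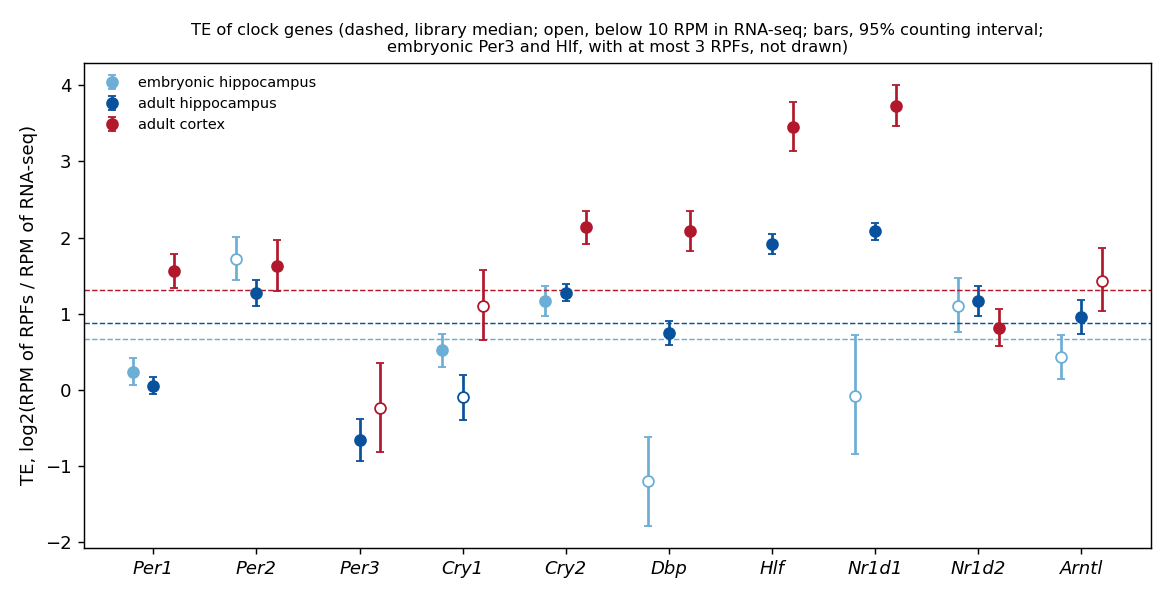
TE, log2 of RPM of RPFs over RPM of RNA-seq (y axis), of the clock genes in embryonic hippocampus, adult hippocampus and adult cortex, with 95% counting intervals; dashed lines are library medians, open points are genes below 10 RPM in RNA-seq, and embryonic Per3 and Hlf, with 1 and 3 RPFs, are not drawn. Nr1d1 (3.73) and Hlf (3.45) are highest in adult cortex, and in adult hippocampus they are again the highest, at 2.08 and 1.91.

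Adult cortex against the unstimulated DIV14 culture set tissue beside cultured neurons. In RNA-seq 7 of 10 clock genes were past 2-fold higher in tissue (17.4% of genes) and none lower (19.5%), and in RPFs 4 were (12.3%) and none lower (11.9%). The 7 in RNA-seq were Nr1d1, Hlf, Per1, Per2, Nr1d2, Dbp and Cry2, and the intervals of Per3, Cry1 and Arntl included 1. In RPFs Hlf had 1388 against 92 RPFs, 8.73-fold (7.06 to 10.9), Dbp 862 against 119, 4.19-fold (3.46 to 5.12), Nr1d1 2355 against 491, 2.77-fold (2.52 to 3.06), and Nr1d2 507 against 110, 2.67-fold (2.17 to 3.31). The output factors and REV-ERB genes were thus the 4, and the ratios of the other 6 genes were below 2.

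RNA-seq, tags and RPFs gave different sizes for some genes. For Per1 the ratio of tissue to culture was 6.78 in RNA-seq (205 against 9 reads, interval 3.50 to 15.04), 1.77 in tags (57 against 56, 1.20 to 2.61) and 1.17 in RPFs (878 against 433, 1.04 to 1.32). Nr1d1 had no RNA-seq read in the culture, at 122 in tissue at least 12.1-fold higher (3 reads taken as the floor of the culture), but 29 tags there against 64 in tissue (3.84-fold, 2.44 to 6.17). In tags 4 of 9 clock genes were past 2-fold higher in tissue, Hlf, Dbp, Nr1d1 and Nr1d2, as in RPFs (11.3% of genes higher, 10.5% lower). For both genes RNA-seq of the culture was the measurement with the fewest counts. In the unstimulated, BDNF and glu/gly cultures the RNA-seq reads of Nr1d1 numbered 0, 7 and 5 beside 491, 416 and 271 RPFs, and those of Hlf 3, 2 and 3 beside 92, 67 and 66 RPFs. Summed oligodendrocyte markers were 2027 CPM in adult cortex and 64.9 in the culture, and progenitor markers 46.2 and 419; their part in these ratios was not tested.

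Tail lengths of adult cortex and cultures, by TAIL-seq, were compared where a gene had at least 50 tags. In adult cortex Nr1d1 had the longest mean tail of the 6 clock genes that qualified, 117 nt (93.8 percentile of 2829 genes), followed by Per1 (111 nt), Nr1d2 (110.4 nt), Cry2 (107 nt) and Dbp (101 nt), and Hlf the shortest, 91.3 nt (22.8 percentile), at a library median of 99.5 nt. In the unstimulated DIV14 culture Per1 had 136 nt (97.1 percentile of 4364 genes), Cry2 120.1 nt, Nr1d2 110.5 nt, Dbp 103 nt and Hlf 87.6 nt (3.23 percentile), at a median of 112 nt. Per1 and Cry2 lay above and Hlf below the median in both. After BDNF the tails were 128 nt for Per1, 127 nt for Cry2, 103 nt for Hlf and 99.4 nt for Nr1d2. After glu/gly Cry2 had 118 nt, Hlf 109.8 nt and Dbp 109.7 nt, and after KCl for 30 min Cry2 had 124 nt. The lone libraries give no error for these values. Hlf and Nr1d1, with the highest TE in adult cortex, thus stood at opposite ends of the tail lengths there.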

How the data were processed

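RNA-seq and ribosome-profiling files hold, per the labels and headers, a read count per gene and an RPM value that the authors computed from a larger total. The deposited log2 TE values are the authors' log2 ratios of RPM of RPFs to RPM of RNA-seq. The authors aligned reads to mm10 with STAR (version 2.4.2 in the submitters' processing notes) and counted those in open reading frames, without the first 50 nt. Tail files hold the authors' tag count per gene and a tail length in nt, the mean in the visual cortex, cultures and adult cortex; hippocampal files do not name the measure, and those lengths are not reported here. The RPF libraries of the miR-1 and miR-155 cultures, whose labels contradict themselves, were not used, and 2 of 44 samples thus stayed unassigned.

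Symbols for 16979 of the 17126 identifiers came from the GRCm38 RefSeq annotation. Light was tested on tag counts with the quasi-likelihood test of edgeR 4.0.16, after filterByExpr and TMM scaling, and on tail length with limma 3.58.1 for genes with at least 50 tags in each mouse, in R 4.3.3, with Benjamini-Hochberg adjustment over all genes and a threshold of 0.05; scripts were tested on simulated data. Mice of a cohort are separate animals. Limma gave every gene the same SE. Other comparisons scaled counts to the total on genes (CPM) and used Clopper-Pearson intervals (95%), for genes with at least 20 counts over both libraries. Intervals cover counting error only, and the floor for a count of 0 was 3 counts. Promoters and the miRNA came from RefSeq tables of GRCm38.

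The rule was to name all 10 members in each comparison; where a range or count stands in place of single values, members inside it are not named one by one. Of the other lists, genes past the threshold after light were named and, elsewhere, some of the 3 with the largest fold past 2-fold. Clock, Npas2, Rora, Rorb, Tef, Bhlhe41, Ciart and Timeless were named in places outside that rule, after their values were seen. The members and lists were chosen with earlier results of these data known. Alternatives were DESeq2 1.42.0, other size factors and filters, each mouse left out, a block by sample number, the authors' RPM, tags in place of RNA-seq reads and other cutoffs. Those added after seeing the data were the tail lengths centred on each library's mean, the comparisons of unstimulated cultures with each other (GFP, and DIV10, against DIV14) and other TE cutoffs for tissues.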

Additional observations from a re-analysis of the deposited data

Results flagged for a closer look

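1 of 34 cohorts examined held a mouse set apart from the other 3 by the Dixon criterion, which chance meets in about 1 of 20 cohorts. It was Nr1d2 in the dark: mouse 3 had 188 CPM, and the others had 232.5, 239 and 241 CPM. The gap to the nearest mouse was 0.844 of the range of the cohort.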

How the results depend on the processing

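Per1 rose under every alternative run, with log2 changes of 1.88 to 2.10 and adjusted p-values up to 1.45e-07. The count of clock genes that rose was 2 with no filter on low counts and 1 to 2 with a mouse left out (2 without mouse 1 in light), Per2 being added each time; adjusted p-values of Per2, where it was tested, ran from 0.0158 to 0.373. Genes higher numbered 46 with at least 50 tags in each library and 94 to 130 with a mouse left out. Genes lower numbered 30 with no filter, and 6 to 20 with a mouse left out (6 without mouse 3 and 20 without mouse 4 in light). Genes with changed tails numbered 1 on the log2 scale, 1 with the replicate block, 3 with each library's mean taken off and 1 to 21 with a mouse left out (19 without dark mouse 1, 21 without mouse 4 in light). Crem lost its call with total tags only (adjusted p = 0.0557) and with the replicate block (0.0512). Same-numbered mice of the cohorts did not deviate together (r = 0.080, -0.18, -0.18 and -0.099), and the replicate block left 1 clock gene, 103 genes higher and 10 lower.

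With tail tags in place of RNA-seq reads, clock genes past 2-fold numbered 1 after glu/gly, 1 after KCl for 10 min, 1 with miR-1, 3 in adult against embryonic hippocampus, 4 in adult cortex against hippocampus and 4 against the DIV14 culture. With the authors' RPM, those in cortex against hippocampus numbered 2 in RNA-seq, Hlf and Nr1d1 lower in place of Nr1d2 higher, and 1 in RPFs, Dbp, Cry1 being lost. The direction of that RNA comparison turned in tags, which are TAIL-seq in cortex and PAL-seq v2 in hippocampus, for Per1 (log2 ratio 1.59), Hlf (0.59), Nr1d1 (3.57; 2 hippocampal tags) and Nr1d2 (-0.59). With the authors' RPM it turned for Dbp (-0.26), whose interval in CPM lay above 1, and for Per2 (0.734-fold), Cry1 (0.845-fold) and Arntl (0.761-fold), whose intervals in CPM included 1. RPM moved the median of all genes there by -0.61 on the log2 scale; the cause of the changes in tags was not tested. At 30 RPM in RNA-seq, 2 clock genes of the 3 that reached it lay above the median TE in adult hippocampus, and 0 in adult cortex and 0 in embryonic hippocampus, where none reached it; with no RNA-seq cutoff 3 did in the embryo. The median tail of clock genes in adult cortex was 109 nt, and 96.1 nt at 100 tags. Depth left several clock genes below 20 reads in RNA-seq of the cultures and 7 of 10 below 20 tags in adult against embryonic hippocampus.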

Other observations

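Genes whose values ran most like those of a clock gene are given as a description. Over the 8 mice, after each cohort's mean was taken off, the tags of Per1 were most like those of Stk40 (Pearson r = 0.980), Znrd1 (0.963) and Spats2l (0.961), and those of Cry2 most like those of Arnt2 (0.994). The nearest genes of the others were Camkk2 for Per2, Gng12 for Per3, Tmed3 for Cry1, Pim3 for Dbp, Xiap for Hlf, Galnt1 for Nr1d1, Tprgl for Nr1d2 and Frg1 for Arntl. With 9554 genes and 8 mice, each clock gene had 3 genes at an r of 0.953 or more, and the mice share depth and dissection. Over the 12 RNA-seq libraries and 9967 genes, Per3 was most like Tpp1 (0.952) and Npas2 (0.951), Hlf most like Dlgap2 (0.972), Nr1d2 most like Arhgap26 (0.975) and Nr1d1 most like Cep170b (0.927) and the myelin gene Mbp (0.923). These libraries differ between tissue and culture, which all of these genes share.

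In the tags of the transduced cultures, Per1 had 11 with GFP, 31 with miR-1 (2.46-fold, 1.20 to 5.42) and 28 with miR-155 (2.07-fold, 0.997 to 4.599), where 2.82% and 2.75% of genes were past 2-fold higher. Both comparisons share the GFP library. Dbp had 25, 30 and 16 tags in the same cultures, and its ratio with miR-155 was 0.52 (0.26 to 1.01).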
